A study of Mus musculus with 16 samples.

Results

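The heat shock proteins and molecular chaperones of the mouse hippocampus were read gene by gene in CA1, the hippocampal field of pyramidal neurons that supports spatial memory. Members were chosen by gene symbol alone: the HSP70, HSP110, HSP90, HSP60, HSP10 and small heat shock protein symbols, the J proteins (Dnaja, Dnajb, Dnajc), the chaperonin subunits named Cct, the Bag cochaperones, and the transcription factors Hsf1 and Hsf2. This gave 84 of the 17986 genes listed in both deposited blocks of values. The symbols Cct6b, Dnajc5b and Dnajc22 also match but were listed in the exploration block alone, each at 0.09 FPKM or less, and were left out. FPKM is the number of sequenced fragments of a gene scaled to the length of its transcript and to the depth of the library.

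All libraries came from male mice of C57Bl6 background, 3 to 6 months old, either wild type or Neil3-/-, the gene of a DNA glycosylase of base excision repair. Brains were frozen without perfusion and cut at 8 µm, and CA1 was taken by laser microdissection, so each library is bulk tissue. Home cage mice had no intervention. Exploration mice spent 1 week in an open field arena of 50 by 50 cm, 20 min per day, and brains were taken 20 min after the final session. There were 2 libraries for each genotype in the home cage and 3 for each after exploration, 10 in all, and 6 further samples labelled as a learning condition were not analysed here.

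Chaperones bind unfolded or partly folded proteins and keep them from aggregating. HSP70 proteins do so in cycles of ATP hydrolysis that J proteins start and that nucleotide exchange factors, among them the BAG proteins and HSP110, bring to an end. HSP90 finishes the folding of kinases and receptors, the ring-shaped chaperonins fold proteins in a closed chamber, and separate sets serve the cytosol, the endoplasmic reticulum and the mitochondrion. Proteotoxic stress and neuronal activity can raise the inducible members through HSF1, which binds heat shock elements in their promoters.

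Neil3 itself went against the labels. Its values ran from 8.35 to 15.22 FPKM in the 5 libraries labelled Neil3-/- but only from 0 to 0.05 FPKM in the 5 wild-type ones, a difference of 12.9 FPKM (exact two-sided permutation test, p = 0.00794, the smallest that 252 splits allow). Groups are therefore called WT-labelled and KO-labelled throughout, and no direction between genotypes is more secure than those labels. Home cage and exploration values were deposited in separate blocks, so the effect of environment and that of block cannot be told apart. The ribosomal RNA Rn18s, for example, stood at 1714.68 to 2398.35 FPKM under home cage and at 5.69 to 10.56 FPKM under exploration. Libraries held an estimated 18900000 to 20200000 fragments when a fixed number of bases was taken off each transcript length, and 17200000 to 18200000 when none was. Under the first estimate 1 fragment on 1 kb of the shortened length was worth 0.0495 to 0.0529 FPKM. The CA1 marker list (7 genes) summed to 745.32 to 889.95 FPKM in a library, against 256.29 to 329.21 FPKM for the 8 markers of CA2, CA3 and dentate gyrus. Of those 8, 4 averaged under 1 FPKM, and sums over different genes do not give shares of tissue. Markers of other cells moved with the environment. Of those tested, 4 of 8 astrocyte, 5 of 8 oligodendrocyte, 4 of 7 microglial, 3 of 8 interneuron and 4 of 4 blood genes were called higher after exploration, and of 7 CA1 genes 4 were called lower and 1 higher. Over all tested genes 12.6% were called higher and 19.2% lower. In no marker list was a gene at 0 in every library. In bulk tissue fewer cells of a type and less RNA per cell cannot be told apart.

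CA1 held most of the chaperone set at moderate to high level. Of the 84 members, 13 averaged at least 100 FPKM, 48 lay between 10 and 100, 16 between 1 and 10, and 7 under 1. Together they summed to 5118.1 to 5776.3 FPKM per library, or 1.179% to 1.352% of the library's FPKM sum. The constitutive cytosolic chaperones led. Hspa8, the constitutive HSP70 that also uncoats clathrin vesicles, averaged 1068 FPKM (range 931.52 to 1225.88). Hsp90ab1, the constitutive HSP90, averaged 797 FPKM, and Hsp90aa1, its stress-responsive partner, averaged 526 FPKM. These 3 genes made up 39.22% to 46.35% of the members' sum.

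The stress-inducible HSP70 genes were far less abundant than Hspa8. Hspa1a averaged 10.5 FPKM and Hspa1b averaged 11.9 FPKM, levels near those of Hsf1 (15.2 FPKM) and Hsf2 (11.4 FPKM). Dnajb5 was the most abundant J protein at 142.6 FPKM. Hspa5, the HSP70 of the endoplasmic reticulum, averaged 127.4 FPKM. The small heat shock proteins had the lowest summed level of the families, a median of 22.24 FPKM per library against 26.71 FPKM for the HSF genes. That holds for the symbols chosen, which leave out the small heat shock protein Cryab (15.08 to 30.34 FPKM). The 8 genes were placed in this family by their Hspb symbol alone, Hspb11 among them. Of these, 5 passed the filter, Hspb11 at a mean of 13.4 FPKM and the others at 1.11 to 3.85 FPKM. Hspb1 averaged 3.85 FPKM with a coefficient of variation of 36.2% over the 10 libraries. Hsph1, an HSP110 that resets HSP70, varied least among the members described here, by 3.05%.

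**Figure D1:**
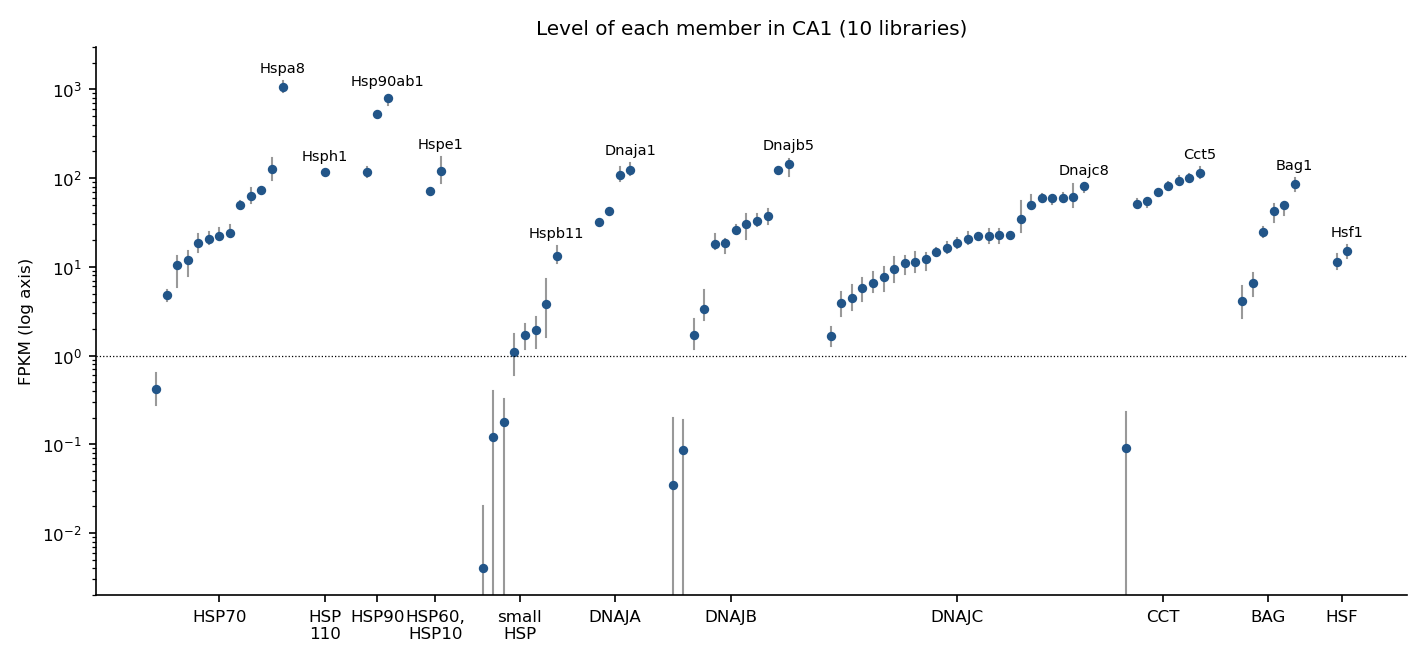
FPKM of each of the 84 members on a log axis, grouped by family and sorted by mean. Points are means over the 10 libraries and lines run from the lowest to the highest library; a line that reaches the bottom of the axis includes a library listed at 0, and the dotted line marks 1 FPKM. Hspa8, Hsp90ab1 and Hsp90aa1 stand above all other members, and the members with an Hspb symbol other than Hspb11 have means below 10 FPKM.

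The 7 cytosolic chaperonin subunits Cct2, Cct3, Cct4, Cct5, Cct6a, Cct7 and Cct8, which build the TRiC ring together with Tcp1, kept close levels. Within any library they lay between 46.66 and 132.31 FPKM, with a mean of 75.38 to 86.92 FPKM over the 7. Cct5 was the highest subunit and Cct3 and Cct4 the lowest. The subunit-like gene Cct8l1 did not exceed 0.23 FPKM. It was 1 of 7 members below the filter of 1 FPKM in 2 libraries, with Dnajb7, Dnajb13, Hspa12b, Hspb2, Hspb7 and Hspb9, none above 0.63 FPKM. These 7 were not tested. The other 77 members were tested among 11892 genes.

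Exploration was compared with the home cage as the mean of both labelled genotypes. Chaperones moved in both directions. Of the 77 tested members, 12 were called higher after exploration and 6 lower (limma, adjusted p under 0.05), which is 23.4% of members against 31.9% of all tested genes. By direction, 15.6% of members against 12.6% of all tested genes were called higher, and 7.79% against 19.2% lower. With the trends in transcript length and GC content removed, described below, 28.9% of members against 26.0% of all genes were called. The median log2 change was 0.04 over the members and -0.03 over all tested genes. Libraries of the 2 environments did not overlap for 8 members, 6 higher and 2 lower. Of all tested genes 16.9% showed such separation, 6.49% higher and 10.4% lower.

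**Figure D2:**
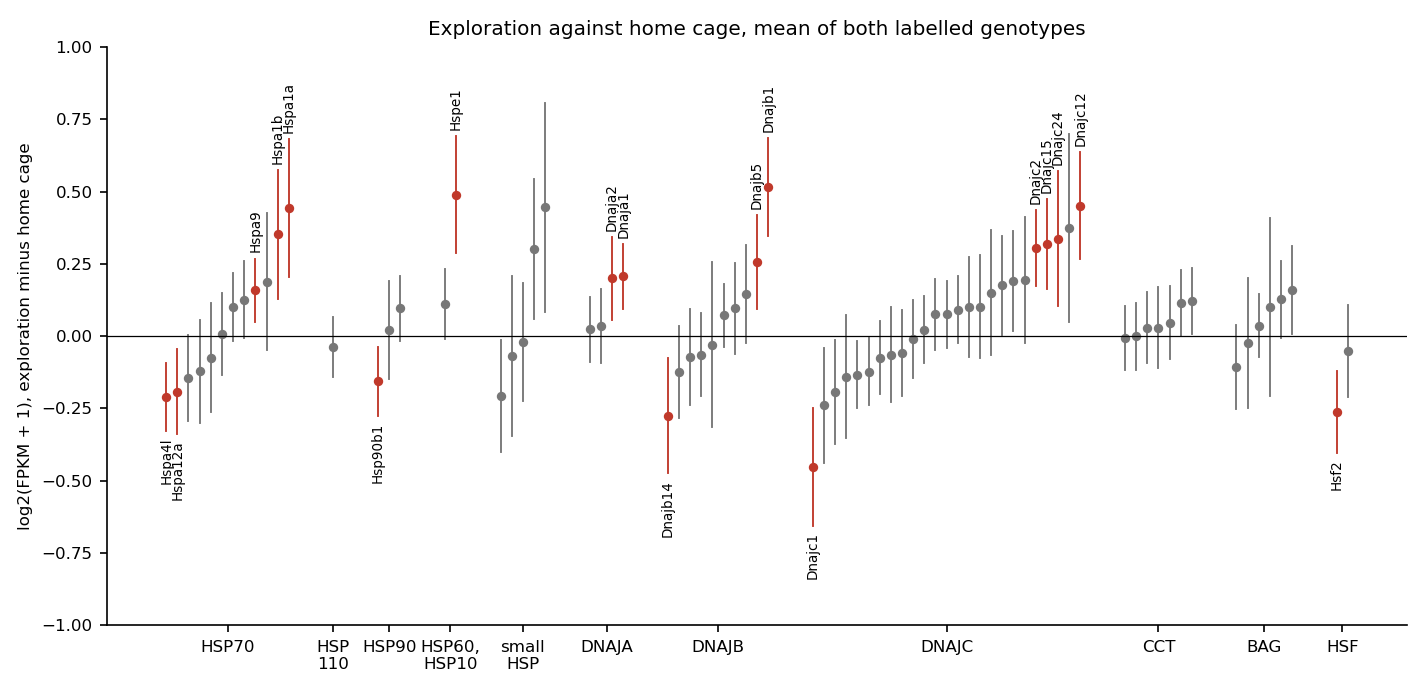
Exploration minus home cage on the log2(FPKM + 1) scale for the 77 tested members, grouped by family and sorted by size. Points are estimates averaged over both labelled genotypes, lines are 95% confidence intervals from limma, and red marks the 18 called genes. The CCT, BAG, HSP110 and small heat shock protein families hold no called gene. The HSP70, DNAJB and DNAJC families hold called genes in both directions.

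Among J proteins, Dnajb1, the heat-inducible class B partner of HSP70, gave the largest rise. In the home cage it stood at 20.84 and 20.65 FPKM in WT-labelled and at 30.65 and 23.26 FPKM in KO-labelled libraries. After exploration it stood at 31.35, 32.77 and 28.68 FPKM in WT-labelled and at 38.69, 34.66 and 39.75 FPKM in KO-labelled libraries. Every exploration library exceeded every home cage library of its own label, although the first KO-labelled home cage library lay above the lowest WT-labelled exploration library. The means were 23.8 ± 4.69 (SD, n = 4) and 34.3 ± 4.28 FPKM (SD, n = 6), and the log2 change was 0.52 (SE 0.08, adjusted p = 0.00105).

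Dnajc12, a cochaperone of aromatic amino acid hydroxylases, was separated completely. Its home cage values were 8.71, 7.62, 7.24 and 6.81 FPKM, and its exploration values were 10.34, 10.72, 9.80, 11.69, 9.28 and 12.76 FPKM, with WT-labelled libraries given first in each. The log2 change was 0.45 (SE 0.08, adjusted p = 0.00309). Dnajc15, a J protein of the mitochondrial inner membrane, was also separated. It went from 54.64, 54.39, 54.54 and 47.61 FPKM to 58.35, 59.28 and 60.92 FPKM in WT-labelled and 85.09, 67.25 and 68.22 FPKM in KO-labelled exploration libraries. Its log2 change was 0.32 (SE 0.07, adjusted p = 0.00715). The highest values were thus those of the KO-labelled exploration group.

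Dnajc2, which works at the ribosome on newly made chains, showed a smaller and tighter rise. Home cage values were 18.36, 19.84, 20.36 and 18.54 FPKM and exploration values 23.81, 22.15, 21.95, 26.08, 26.95 and 23.62 FPKM. The groups did not overlap, and the log2 change was 0.30 (SE 0.06, adjusted p = 0.00384). The class A genes Dnaja1 and Dnaja2, general partners of Hspa8, rose by 0.21 and 0.20 on the log2 scale (adjusted p = 0.0116 and 0.0363). Dnajb5 rose by 0.26 (adjusted p = 0.0219), and Dnajc24, which acts in diphthamide synthesis, by 0.34 (adjusted p = 0.0328). The Dnaja2 call was lost in 9 of 17 alternatives and the Dnajc24 call in 9 of 16.

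2 J proteins of the endoplasmic reticulum membrane were called lower. Dnajc1, which recruits the luminal HSP70 to the translocon, fell from 7.11, 7.47, 6.46 and 7.18 FPKM in the home cage to 4.58, 5.56, 4.22, 5.18, 5.79 and 4.16 FPKM. The groups did not overlap, and the log2 change was -0.45 (SE 0.09, adjusted p = 0.00501). Dnajb14 fell by 0.28 on the log2 scale (adjusted p = 0.038), with its highest value, 5.41 FPKM, in the second KO-labelled home cage library and 3.13, 3.2 and 3.92 FPKM in the other home cage libraries. That call was lost in 12 of 16 alternatives. Among other J proteins of this membrane, Dnajb12, Dnajc14, Dnajc18 and Dnajc25, named after their values were seen, were not called, with values of -0.07, 0.02, -0.12 and 0.19. Dnajc25 was called higher with quantile normalization (0.30, adjusted p = 0.0204) and with no variance trend (0.19, adjusted p = 0.0375). It was also called higher with length and GC trends removed (0.29, adjusted p = 0.0225). 3 J proteins of vesicle traffic did not pass the test: the values were -0.01 for Dnajc5, the cysteine string protein of synaptic vesicles, -0.06 for Dnajc6, the auxilin that uncoats clathrin with Hspa8, and -0.24 for Dnajc13, an endosomal partner of Hspa8 (adjusted p = 0.916, 0.538 and 0.0638). Dnajc13 was called lower without the first WT-labelled home cage library (-0.33, adjusted p = 0.0292) and without the second KO-labelled exploration library (-0.28, adjusted p = 0.0443).

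**Figure D3:**
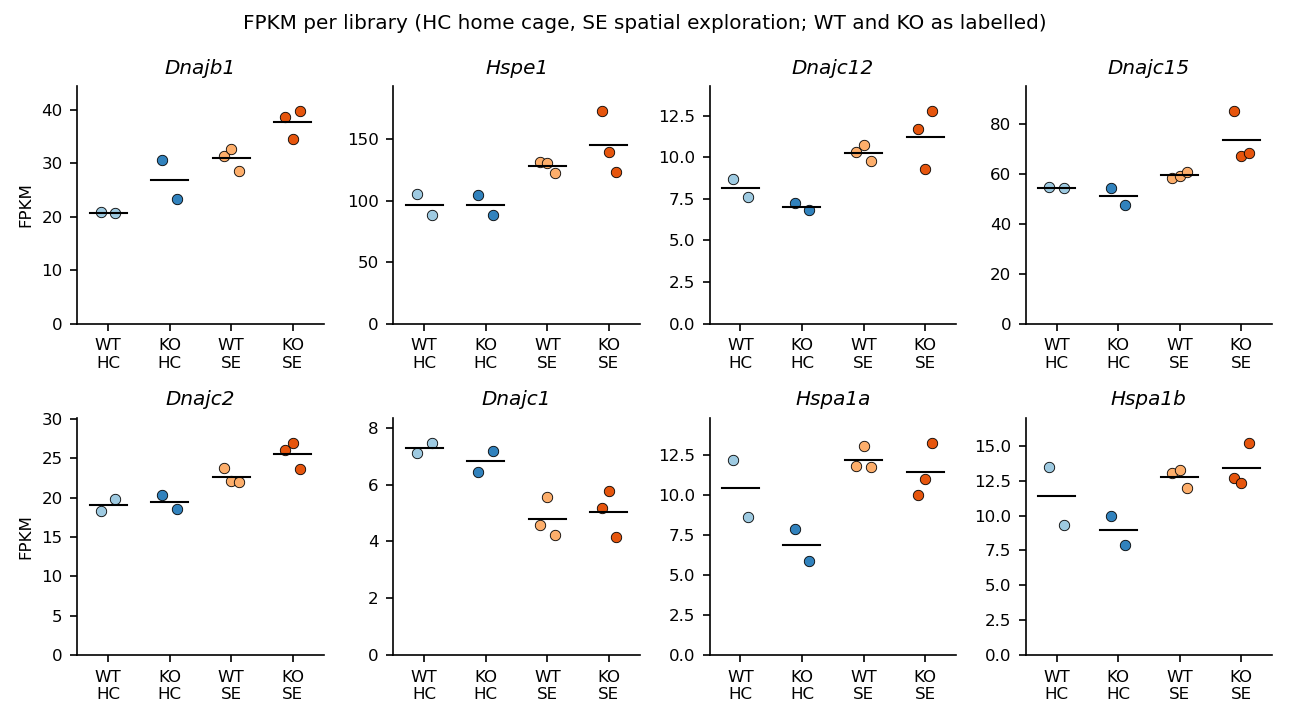
FPKM per library for the 6 members called in every alternative analysis (Dnajb1, Hspe1, Dnajc12, Dnajc15, Dnajc2, Dnajc1) and for the inducible genes Hspa1a and Hspa1b. Points are single libraries, bars are group means, and groups are genotype label by environment. Dnajc1 is the one gene of the 8 that is lower after exploration, and the lowest library of Hspa1a and of Hspa1b is a KO-labelled home cage one.

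Among HSP70 genes the inducible pair rose. Hspa1a stood at 12.2 and 8.62 FPKM in WT-labelled and at 7.85 and 5.89 FPKM in KO-labelled home cage libraries. After exploration it stood at 11.81, 13.06 and 11.75 FPKM in WT-labelled and at 9.99, 10.98 and 13.25 FPKM in KO-labelled libraries. The log2 change was 0.44 (SE 0.11, adjusted p = 0.0108). Hspa1b rose by 0.35 (SE 0.10, adjusted p = 0.0231). The environments overlapped because of 1 home cage library, the first WT-labelled one, whose Hspa1b was 13.5 FPKM against 7.92 to 9.98 FPKM in the other 3. That library also had the highest Fos among home cage libraries, 16.28 FPKM against 2.5, 7.16 and 6.72 FPKM. Its immediate early gene sum was 575.72 FPKM, against 279.22 to 434.71 FPKM in the other home cage libraries and 953.02 to 1208.16 FPKM after exploration. Whether its Hspa1a and Hspa1b levels are linked to these values was not tested.

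The pair cannot be read as independent genes. Their longest open reading frames are 99.6% identical over 1926 bases, so the split of fragments between them is uncertain. Their summed FPKM was 25.7, 17.97, 17.83 and 13.81 in the home cage and 24.84, 26.32, 23.7, 22.69, 23.34 and 28.46 after exploration. Both calls were lost without the second WT-labelled or without the second KO-labelled home cage library, where Hspa1a changed by 0.33 and 0.35 (adjusted p = 0.0593 and 0.0627) and Hspa1b by 0.23 and 0.28 (adjusted p = 0.113 and 0.115).

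Hspa9, the mitochondrial HSP70, rose by 0.16 (SE 0.05, adjusted p = 0.0319), from a mean of 68.1 ± 2.98 (SD, n = 4) to 76.1 ± 3.21 FPKM (SD, n = 6). Hspa4l, an HSP110 relative, fell by 0.21 on the log2 scale (SE 0.05, adjusted p = 0.0132), from 24.25, 25.89, 26.24 and 29.61 FPKM to 22.53, 22.44, 21.60, 23.65, 22.65 and 23.42 FPKM, with no overlap. The distant family member Hspa12a fell by 0.19 (adjusted p = 0.0475). The Hspa9 call was lost in 8 of 17 alternatives and the Hspa12a call in 11 of 17. The abundant Hspa8 changed by -0.07 (adjusted p = 0.528), with a 95% interval of -0.26 to 0.11, and Hsph1 by -0.04 (adjusted p = 0.571).

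HSP90 genes moved little. Hsp90aa1 stood at 510.1, 493.24, 501.51 and 515.83 FPKM in the home cage and at 522.29, 525.66, 530.19, 556.61, 535.24 and 569.77 FPKM after exploration. All 6 exploration libraries exceeded all 4 home cage libraries, but the log2 change of 0.10 did not pass the test (adjusted p = 0.172). Hsp90ab1 changed by 0.02 (adjusted p = 0.853). Hsp90b1, the HSP90 of the endoplasmic reticulum, fell by 0.16 on the log2 scale (SE 0.06, adjusted p = 0.0479), from 124.5 ± 7.70 (SD, n = 4) to 111.5 ± 6.63 FPKM (SD, n = 6). The Hsp90b1 call was lost in 12 of 17 alternatives. Hspa5, its luminal neighbour, changed by 0.19 in the opposite direction without passing the test (adjusted p = 0.2). Its highest values, 161.79 and 170.19 FPKM, were in KO-labelled exploration libraries.

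The mitochondrial chaperonin pair is encoded by neighbouring genes that start in opposite directions on chromosome 1. Hspe1, the HSP10 lid, stood at 105.24, 88.23, 104.93 and 88.45 FPKM in the home cage and at 131.64, 130.62, 122.23, 172.49, 139.32 and 123.05 FPKM after exploration, with no overlap. Its log2 change was 0.49 (SE 0.09, adjusted p = 0.00323). Hspd1, the HSP60 barrel, stood at 70.51, 66.2, 63.99 and 72.33 FPKM and then at 73.12, 75.32, 66.8, 74.99, 77.07 and 75.16 FPKM. These values overlapped, and the log2 change of 0.11 did not pass the test (adjusted p = 0.148). The 95% interval was 0.29 to 0.69 for Hspe1 and -0.01 to 0.23 for Hspd1. The difference between the genes was not itself tested.

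Promoter letters were set beside these values. RefSeq promoters on GRCm38.p6, 250 bases before to 50 after a start, were found for 69 of the 84 members (89 promoters). Not matched were Bag4, Cct4, Dnajc2, Dnajc5, Dnajc11, Dnajc12, Dnajc18, Dnajc30, Hsf1, Hsp90aa1, Hsp90ab1, Hspa8, Hspa9, Hspa13 and Hspb2. A heat shock element of 3 units was searched as GAA, NN, TTC, NN, GAA or as TTC, NN, GAA, NN, TTC, written without gaps, where N is any base. One of 2 units was searched as GAA, NN, TTC or as TTC, NN, GAA, which also lies inside every 3-unit match. An endoplasmic reticulum stress element was searched as CCAAT, any 9 bases, then CCACG, and all were read on both strands. The 3-unit element was in 6 of 89 member promoters, those of Dnajb6, Hspd1, Hspe1 and Hsph1, or 6.74% against 0.6% of all promoters in the table. By gene it was in 4 of 69, or 5.8% against 0.66%. Dnajb6 and Hsph1 each count with 2 overlapping windows, and Hspd1 and Hspe1 share their element. The 2-unit element was in 24.72% of member promoters against 15.06% of all. The stress element of the endoplasmic reticulum was in the promoters of Dnajc3, Hsp90b1 and Hspa5, against 0.12% of all promoters.

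Shown here, 5′ to 3′ on the gene's strand, are the 215 bases before the start of genes that carry an element and whose exploration values are given above. Capitals mark the heat shock elements of Hspe1, Hspa1b and Dnaja1 and the endoplasmic reticulum stress elements of Hspa5 and Hsp90b1. Positions count back from -1, the base before the start.
Hspe1: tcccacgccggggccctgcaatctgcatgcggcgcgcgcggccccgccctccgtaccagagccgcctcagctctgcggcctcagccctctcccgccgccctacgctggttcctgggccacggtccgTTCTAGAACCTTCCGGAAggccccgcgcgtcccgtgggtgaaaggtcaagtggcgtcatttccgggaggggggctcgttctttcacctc
Hspa1b: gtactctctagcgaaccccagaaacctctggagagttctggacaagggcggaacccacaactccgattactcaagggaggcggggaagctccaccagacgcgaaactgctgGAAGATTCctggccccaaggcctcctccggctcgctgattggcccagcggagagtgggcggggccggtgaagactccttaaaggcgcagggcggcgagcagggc
Dnaja1: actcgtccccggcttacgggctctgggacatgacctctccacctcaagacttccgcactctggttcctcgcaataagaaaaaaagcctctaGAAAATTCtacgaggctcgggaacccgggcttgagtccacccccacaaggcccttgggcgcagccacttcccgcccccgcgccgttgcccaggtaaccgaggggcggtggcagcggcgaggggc
Hspa5: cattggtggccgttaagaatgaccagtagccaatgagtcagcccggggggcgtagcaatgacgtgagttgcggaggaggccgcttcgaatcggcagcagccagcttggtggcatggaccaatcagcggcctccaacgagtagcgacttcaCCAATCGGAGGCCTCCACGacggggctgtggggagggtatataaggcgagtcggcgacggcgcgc
Hsp90b1: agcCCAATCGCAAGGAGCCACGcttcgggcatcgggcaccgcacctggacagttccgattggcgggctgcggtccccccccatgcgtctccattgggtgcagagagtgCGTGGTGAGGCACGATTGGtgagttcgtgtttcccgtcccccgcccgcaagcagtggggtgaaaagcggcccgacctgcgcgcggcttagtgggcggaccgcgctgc

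The Hspe1 stretch (chr1:55087933-55088147, plus strand) is the whole interval between the start of Hspe1 and one of 2 listed starts of Hspd1. Its run of overlapping 3-unit elements lies at -89 to -72 from Hspe1 and at -144 to -127 from that Hspd1 start, so the called gene and the uncalled one have this element in common. A second Hspd1 start in the table lies beyond the Hspe1 start, and its window (chr1:55088194-55088493, minus strand) holds no match. Hspa1b (chr17:34959239-34959453, minus strand) and Hspa1a are identical at 212 of these 215 bases and both carry the 2-unit match GAAGATTC at -104 to -97. Dnaja1 (chr4:40722253-40722467, plus strand) has one at -124 to -117. The windows of its other listed starts (chr4:40722672-40722971 and chr4:40722680-40722979, plus strand) hold no match. In Hspa5 (chr2:34771875-34772089, plus strand) the stress element lies at -65 to -47. Hsp90b1 (chr10:86705445-86705659, minus strand) has it at -212 to -194 and, on the other strand, at -107 to -89. Of these 2 genes, Hsp90b1 was called lower after exploration, a call lost in 12 of 17 alternatives, and Hspa5 was not called.

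Over all matched genes, the 2-unit element was found in 4 of 9 members called higher, 0 of 6 called lower and 15 of 48 tested but not called. Over all tested genes with a promoter in the set the share was 13.55%. The 4 include Hspa1a and Hspa1b, whose promoters are near copies, and these counts were not tested. The element was thus present in uncalled genes such as Hspb1, Bag3, Hsph1 and Hspd1. Dnajb1, with the largest rise, has no match to these letters in its window, which says nothing of the factor. A match is a description of letters and not of binding.

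The regulators and the remaining families showed few calls. Hsf1, the main regulator of the heat shock response, ranged from 14.79 to 17.47 FPKM before and from 12.65 to 16.65 FPKM after exploration, a log2 change of -0.05 (adjusted p = 0.61). Hsf2, its paralog, fell from 11.63, 12.89, 14.07 and 12.47 FPKM to 10.23, 9.33, 9.42, 10.67, 11.18 and 12.06 FPKM (log2 change -0.26, SE 0.07, adjusted p = 0.0112). The highest exploration library lay above the lowest home cage library. No CCT subunit was called, with log2 changes between -0.01 and 0.12 over the 7, and no BAG gene was called, with changes between -0.11 and 0.16 over the 6. Hspb1, a small heat shock protein that binds actin filaments, went from 2.98 ± 0.924 (SD, n = 4) to 4.42 ± 1.41 FPKM (SD, n = 6), a log2 change of 0.45 that did not pass the test (adjusted p = 0.0584).

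Transcript length moved with these changes. Shorter transcripts tended to be higher after exploration, with a Spearman rho of -0.36 between length and log2 change over 76 members and of -0.49 over 11757 tested genes. These are genes of the same libraries and not replicates. The 12 members called higher had a median transcript length of 2861 bases and the 6 called lower one of 5509 bases. With the trends in length and GC content removed, an alternative chosen after seeing the data, 22 members were called, of which 13 were among the 18 above. Hspa4l, Hspa12a, Dnajb14, Dnajc24 and Hsp90b1 lost their calls, and Hspa4l turned from -0.21 to 0.02 (adjusted p = 0.838). Hspe1, with 774 bases among the shortest transcripts, went from 0.49 to 0.29 and remained called (adjusted p = 0.00842), as did Dnajc1, from -0.45 to -0.29 (adjusted p = 0.0212). Dnajc5 turned from -0.01 to 0.15 and was called (adjusted p = 0.0276). Dnajc6 and Hsph1 turned from -0.06 to 0.09 and from -0.04 to 0.06 without passing the test (adjusted p = 0.272 and 0.364), and Dnajc13 went to -0.001 (adjusted p = 0.991).

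**Figure D4:**
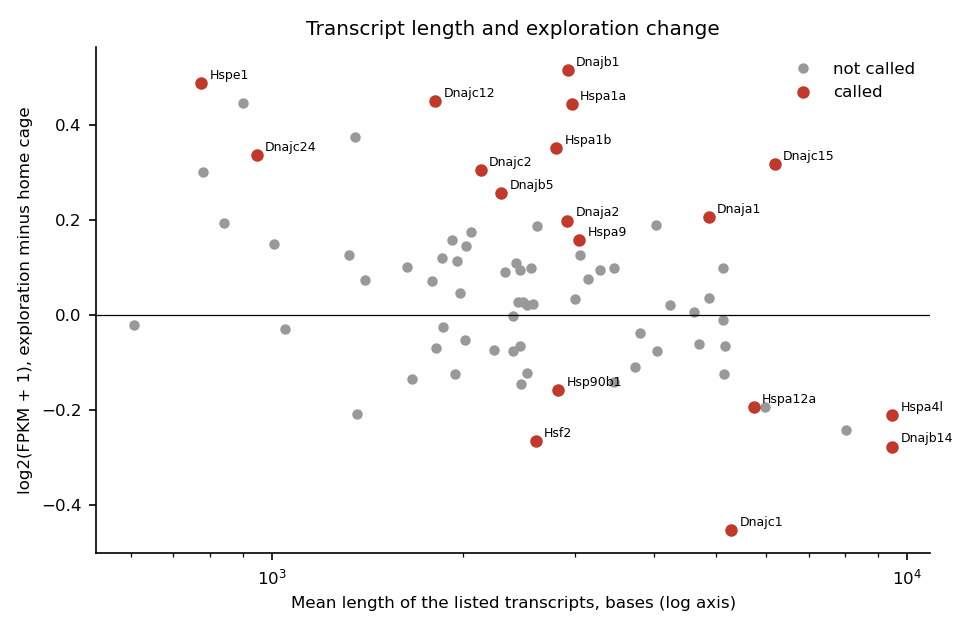
Exploration minus home cage on the log2(FPKM + 1) scale against transcript length in bases (log axis) for the 76 tested members with a length. Each point is a gene, and red marks genes called at an adjusted p under 0.05. Of the 6 genes called lower, Hspa4l and Dnajb14 have the longest transcripts, while Hspe1 and Dnajc24 are short and were called higher.

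The 6 members called in the main analysis and in all 17 alternatives were Dnajb1, Hspe1, Dnajc12, Dnajc15 and Dnajc2, all higher, and Dnajc1, lower. The count of 18 depended on single libraries. With the second WT-labelled home cage library left out it was 6, and these were the same 6 genes. It was 9 without the second KO-labelled home cage library, where Dnaja1, Hsf2 and Dnajc24 were called beside those 6, and 12 without the second WT-labelled exploration library.

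Other genes of the same pathways gave the counts below for exploration, where 12.6% of all tested genes were called higher and 19.2% lower. Of 19 listed HSF1 targets, 13 of them members, 6 were called higher and 1 lower. Cryab, a small heat shock protein abundant in oligodendrocytes, was the one called gene outside the members, at 0.45 (adjusted p = 0.0149), with the oligodendrocyte marker sum at 149.79 to 241.72 FPKM in the home cage libraries and at 211.66 to 389.11 FPKM after exploration. The part of those cells in its value was not tested. With length and GC trends removed Cryab stood at 0.28 and lost its call (adjusted p = 0.143). Of 20 genes of endoplasmic reticulum folding and the unfolded protein response, 3 were called higher, namely the folding cofactor Sdf2l1 (0.56), the transcription factor Atf4 (0.50) and its target Ddit3 (0.38), and 1 lower, Hsp90b1. With length and GC trends removed Atf4 alone of these 4 was called (0.46, adjusted p = 0.0367), while Sdf2l1 stood at 0.44 (adjusted p = 0.0516) and Ddit3 at 0.22 (adjusted p = 0.0731). Of 13 mitochondrial chaperones and proteases, 5 were called higher and 0 lower, including the exchange factor Grpel1 (0.29) and the protease Clpp (0.29), which became 0.37 and 0.15 with the trends removed and remained called. In that list Trap1, the mitochondrial HSP90, stood at -0.10 (adjusted p = 0.181).

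Prefoldin, the hexamer that hands unfolded actin and tubulin to the CCT ring, gave more calls than the ring. Pfdn4 rose by 0.68, Pfdn5 by 0.46, Vbp1 by 0.34, Pfdn1 by 0.32 and Pfdn2 by 0.30 (adjusted p between 0.000869 and 0.0135), Pfdn6 stood at 0.12 (adjusted p = 0.156), and neither Tcp1 nor any of Cct2 to Cct8 was called. With length and GC trends removed these became 0.41, 0.33, 0.15, 0.18 and 0.24, and Vbp1 lost its call (adjusted p = 0.0666). Among 18 cytosolic cochaperones, 2 were called higher, against 12.6% of all tested genes. They were the HSP70 exchange factor Hspbp1 (0.33) and Tomm70a (0.17), the mitochondrial import receptor for HSP90 clients. The cold-inducible RNA-binding protein gene Rbm3 rose by 0.74 (adjusted p = 0.00237). All 9 immediate early genes were called higher, led by Fos (log2 change 2.50, adjusted p = 0.000432).

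Read within each label, exploration gave unequal counts. In WT-labelled libraries 2 members were called, Dnajb1 (0.55, adjusted p = 0.0149) and Dnajc1 (-0.53, adjusted p = 0.0386), against 6.31% of all tested genes. Both calls were lost without the first or the second WT-labelled home cage library and without the first WT-labelled exploration library, and 1 of them without either other WT-labelled exploration library. In KO-labelled libraries 20 were called, 12 higher and 8 lower, against 28.6% of all tested genes, of which 12.0% were higher and 16.6% lower. Those higher were Dnajc12 (0.60), Hspa1a (0.66), Hspe1 (0.57), Hspa1b (0.54), Dnajc15 (0.51), Dnajb1 (0.48), Dnajb5 (0.45), Dnajc2 (0.38), Bag5 (0.35), Dnaja2 (0.31), Dnaja1 (0.28) and Hspa9 (0.22). Those lower were Dnajb14 (-0.53), Hspb6 (-0.41), Dnajc16 (-0.36), Dnajb2 (-0.35), Hspa2 (-0.34), Hspa12a (-0.33), Hspa4l (-0.25) and Dnajc30 (-0.22). Of 18 alternatives, the Dnajc30 call was lost in 16, that of Hspa2 in 14, of Dnajc16 in 11 and of Hspa9 in 9. The Hspb6 call was lost in 8 of 17, and each of the others in 5 or fewer. The count rested on 1 library: without the second KO-labelled home cage library 0 members were called, against 4.27% of all tested genes (smallest adjusted p among members 0.0676), and without the first KO-labelled exploration library 13.

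The difference between labels in the exploration response was tested directly. It passed for 0 of 77 members, against 0.875% of all tested genes, and 10 members had an unadjusted p under 0.05, or 13% against 16.1% of all tested genes. The smallest adjusted p was 0.144, for Dnajb2. A call in the KO-labelled libraries alone is therefore not a shown difference between the labels. For Hspa1a the difference in response was 0.43 (adjusted p = 0.356).

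The labels themselves were compared in each environment. In the home cage 0 members were called, against 3.57% of all tested genes, and 10 had an unadjusted p under 0.05, or 13% against 18.3% of all tested genes. After exploration 0 members were called, against 0.597% of all tested genes, and 19 had an unadjusted p under 0.05, or 24.7% against 17.2% of all tested genes. Averaged over environments 1 member was called, against 2.13% of all tested genes. It was Bag4, a BAG protein that also binds the death domain of the tumour necrosis factor receptor. Bag4 stood at 22.34 and 23.16 FPKM in WT-labelled and at 26.04 and 26.18 FPKM in KO-labelled home cage libraries. After exploration it stood at 21.69, 23.81 and 22.58 FPKM in WT-labelled and at 27.87, 26.90 and 28 FPKM in KO-labelled libraries. All 5 KO-labelled libraries exceeded all 5 WT-labelled ones, and the log2 difference was 0.23 (SE 0.05, adjusted p = 0.0411). The call was lost in 10 of 17 alternatives, 8 of which left out a library, with adjusted p up to 0.155 and the difference between 0.22 and 0.25.

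Complete separation of the labels over both environments was seen for Bag4 and Hspa13, both higher in KO-labelled libraries, against 2.27% of all tested genes. Hspa13, an HSP70 of microsomes, stood at 19.91 and 20.94 FPKM against 22.69 and 22.54 FPKM in the home cage and at 21.17, 21.23 and 21.18 FPKM against 27.03, 23.57 and 25.01 FPKM after exploration. Its log2 difference of 0.19 did not pass the test (adjusted p = 0.0845). Within each environment taken alone, 10 members were higher in every KO-labelled library than in every WT-labelled one in both environments, against 2.61% of all tested genes. They were Bag1, Bag4, Cct4, Cct5, Cct6a, Dnajb1, Dnajc3, Dnajc25, Hspa4l and Hspa13, named after their values were seen. One member, Dnajc17, was lower in both, against 4.19% of all tested genes. Dnajb1 had the largest difference of the 10, 0.31 (adjusted p = 0.0578). The astrocyte marker sum was also higher in KO-labelled home cage libraries, at 259.85 to 303.61 FPKM against 170.77 to 186.44 FPKM. After exploration it overlapped between labels, at 251.04 to 292.15 FPKM in KO-labelled against 206.82 to 269.29 FPKM in WT-labelled libraries. In the home cage the sums of oligodendrocyte, microglial and endothelial markers were higher in KO-labelled libraries as well, at 203.96 to 241.72 against 149.79 to 177.4, 51.65 to 55.75 against 37.36 to 41.39 and 29.79 to 35.38 against 24.69 to 25.51 FPKM, while after exploration these sums overlapped between labels. The choroid plexus marker sum reached 236.21 FPKM in a home cage library and 131.92 FPKM in an exploration library labelled WT, and at most 16.57 FPKM in those labelled KO. The part of these markers in the differences was not tested.

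**Figure D5:**
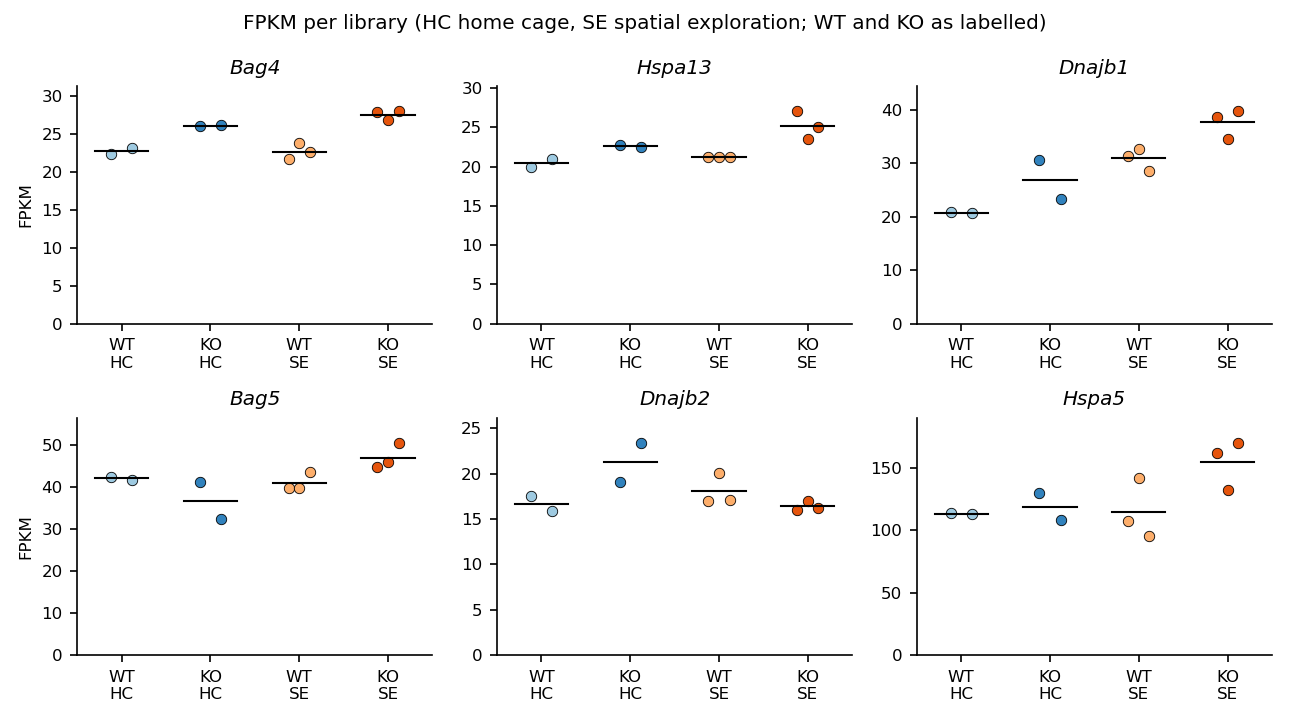
FPKM per library for Bag4, Hspa13, Dnajb1, Bag5, Dnajb2 and Hspa5 in the 4 groups of genotype label by environment. Points are libraries and bars are group means. Bag4 and Hspa13 are higher in all 5 KO-labelled libraries, and Bag5 and Dnajb2 differ between labels in opposite directions in the 2 environments.

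The central chaperones did not pass the test between labels. Over all 77 tested members the averaged differences ran from -0.31 for Hspa1a to 0.35 for Hspb1, and neither was called. Hspa1a also had the most negative difference in the home cage, -0.53, with both KO-labelled libraries below both WT-labelled ones. It was not called there, and after exploration its libraries overlapped between labels. Averaged over environments, Hspa8 differed by -0.01, Hsp90aa1 by 0.05, Hsp90ab1 by -0.11, Hsph1 by 0.01, Hspd1 by 0.04 and Hsf1 by -0.11, none past the test (adjusted p between 0.433 and 0.954). Hspa5 was higher by 0.25 in KO-labelled libraries (adjusted p = 0.221), mostly after exploration, where the difference was 0.44 (adjusted p = 0.156). Bag1 differed by 0.18 (adjusted p = 0.134) and Bag3, which feeds HSP70 clients to autophagy, by 0.24 (adjusted p = 0.363). From the wider lists, Fkbp5, an HSP90 cochaperone that responds to glucocorticoids, was the one cochaperone of 18 called for the label. It was higher by 0.35 in KO-labelled libraries (adjusted p = 0.0481). The share called over all tested genes was 2.13%.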

How the data were processed

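CA1 RNA was sequenced as 100 bp paired reads on a BGISEQ-500, per the labels' protocols. The authors deposited FPKM values per gene, in an exploration block (19156 genes) and a home cage block (18257 genes). The submitters' processing notes name HISAT, StringTie, GATK, Bowtie2, RSEM, GRCm38 and mm10 without roles or versions. Whether the blocks were normalized together and whether strand was used are not given in the sources used here, so overlapping genes are uncertain. Depth came from the steps between low FPKM values. Blocks were joined by gene ID. A gene was tested where 2 or more libraries reached 1 FPKM (11892 genes), with limma 3.58.1 in R 4.3.3 on log2(FPKM + 1), which understates changes of low genes, with a variance trend and 1 mean for each of 4 groups (6 residual and 5.71 prior degrees of freedom). All 10 libraries entered every fit, so comparisons share libraries and the environment contrasts within each label share 1 estimate of spread. In 7 comparisons, p-values were Benjamini-Hochberg adjusted over all tested genes, and calls were made under 0.05. They measure the spread between these libraries, and nothing in the labels says more of their independence. The fit was tested on simulated data.

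Transcript lengths were means over GENCODE M21 transcripts matched through RefSeq IDs, and covered 98.9% of tested genes and 76 of 77 tested members. Members, lists and comparisons were chosen with earlier results of these data known. Named were a set list of central chaperones, every called member, and up to 4 called genes in each direction from each other list by size; Vbp1, Pfdn1, Pfdn2, Trap1, Tcp1, Hspa13, Dnajc17, Dnajc3, Dnajc13, Dnajc14, Dnajc18, Dnajb12 and Dnajc25 were added or completed after values were seen. Alternatives were no filter or one of 5 FPKM, a pseudocount of 0.1, quantile normalization or median-of-ratios size factors, no variance trend, a fit of the groups compared alone, length and GC trends removed (chosen after seeing the data), and each library left out.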

Additional observations from a re-analysis of the deposited data

Results flagged for a closer look

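2 members drew attention because every KO-labelled library lay on one side of every WT-labelled library in the home cage and on the other side after exploration. That is 2.6% of the 77 tested members, against 4.48% of all tested genes. Bag5, a BAG protein that acts on HSP70, stood at 42.37 and 41.58 FPKM in WT-labelled and at 41.05 and 32.38 FPKM in KO-labelled home cage libraries. After exploration it stood at 39.81, 39.58 and 43.43 FPKM in WT-labelled and at 44.57, 45.81 and 50.4 FPKM in KO-labelled libraries. The difference in response was 0.39 on the log2(FPKM + 1) scale and did not pass limma's test (adjusted p = 0.187). Of 17 alternatives 16 did not call it, with adjusted p from 0.145 to 0.549. The one that did left out the first KO-labelled home cage library (0.56, adjusted p = 0.0386), so that arm held the lower library alone, whose spread is taken from the other groups.

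Dnajb2, a neuronal J protein that sends clients to the proteasome, showed the reverse. It stood at 17.52 and 15.84 FPKM in WT-labelled and at 19.11 and 23.37 FPKM in KO-labelled home cage libraries, and at 16.98, 20.03 and 17.08 FPKM in WT-labelled against 15.98, 16.97 and 16.18 FPKM in KO-labelled exploration libraries. Its difference in response was -0.45 (adjusted p = 0.144), and none of 17 alternatives called it (adjusted p 0.0519 to 0.466).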

How the results depend on the processing

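Counts of called members changed as follows. For the label in the home cage the count was 1 in place of 0 with quantile normalization and 1 with length and GC trends removed. For the label averaged over environments it was 0 in place of 1 with no filter and with no variance trend, 2 with quantile normalization and 2 with the trends removed. For exploration in WT-labelled libraries it was 7 in place of 2 when only the groups compared were fitted and 1 with the trends removed. For exploration in KO-labelled libraries it was 8 in place of 20 when only the groups compared were fitted. Leaving out 1 library gave 0 to 2 for the label in the home cage, 0 to 0 after exploration and 0 to 2 averaged. It gave 0 to 3 for exploration in WT-labelled libraries, 0 to 20 in KO-labelled libraries and 6 to 20 averaged, 0 to 1 for the difference in response, and 12.3 to 14.0 FPKM for the Neil3 difference. Among called members the one turned direction was Hspa4l after exploration, 0.016 with the trends removed. The uncalled Dnajc5, Dnajc6, Dnajc10 and Hsph1 also turned there, to 0.15, 0.09, 0.02 and 0.06.

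Scaling mattered for direction. With median-of-ratios size factors, exploration averaged over labels gave 17 members higher and 3 lower in place of 12 and 6, and 49.2% of all calls were higher in place of 39.7%. With length and GC trends removed it gave 17 and 5, with 56.4% of all calls higher; in KO-labelled libraries that share was 55.6% in place of 42.0%. For the label averaged over environments, 50.4% of all calls were higher with quantile normalization and 56.4% with the trends removed, in place of 36.4%. No paired analysis was possible because the labels give the groups no shared replicate numbers. Home cage groups of 2 libraries, and FPKM without fragment counts, limit what small differences can be called.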
